A study of Mus musculus with 8 samples.

Results

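The genes described here code for protein subunits of the mitochondrial ribosome, or mitoribosome. They were taken by name, as every probe set of the array with a single gene symbol that begins with Mrpl or Mrps and a digit. This gave 127 probe sets of 74 genes, out of 12393 genes with a single symbol. Of these, 47 are named Mrpl, for the large subunit, and 27 are named Mrps, for the small subunit. Where a gene had several, the brightest on average stood for it. There was 1 probe set for 41 genes, and 33 genes had between 2 and 7.

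The mitoribosome translates the few proteins that mitochondrial DNA still encodes, all of them subunits of the respiratory chain and ATP synthase. Its RNAs come from mitochondrial DNA, but all of its proteins are coded in the nucleus, made in the cytosol and imported. Some subunits have a counterpart in the bacterial ribosome and others belong to mitochondria alone. Red cell precursors need mitochondria for the first and last steps of haem synthesis, and they lose them as they mature.

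The RNA came from precursors of the primitive erythroid line, the first red cells of the yolk sac, at embryonic day 9.5. Of the 8 arrays, 4 carried RNA of KLF2-/- embryos (replicates 11, 12, 13 and 14) and 4 that of wild type FVB/N embryos (replicates 3, 5, 7 and 9). KLF2 belongs to the Krüppel-like family of DNA-binding proteins. No other allele or agent is labelled in either group. No label names the strain that carries the KLF2 deletion, so genotype and strain cannot be told apart. The mothers of the KLF2-/- embryos are KLF2-/- in the labels and KLF2+/- in the design text. Both groups were cut by laser from stained frozen sections of 8 micrometres, with between 2 and 4 yolk sacs from 2 litters pooled per replicate. The KLF2-/- samples held 3600 to 4400 cells each, and 10 to 20 ng of RNA was labelled for them, against 10 to 39 ng for wild type. Values are log2 signals normalised by the authors.

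The captures carried both erythroid and other yolk sac RNA. The embryonic globin gene Hbb-bh1 lay between 14.01 and 14.13 on the KLF2-/- arrays and between 14.04 and 14.17 on the wild-type arrays. The last is the highest value of any probe set, and this narrow range does not show that the arrays held equal erythroid RNA. Other erythroid markers varied more. Gata1 lay between 7.76 and 9.77 on the KLF2-/- arrays and between 8.01 and 9.28 on the wild-type arrays. Afp and Ttr, which mark visceral endoderm, the epithelium next to the blood islands, lay between 10.60 and 13.37 on the KLF2-/- arrays and between 12.21 and 13.13 on the wild-type arrays. Klf2 itself averaged 6.05 ± 0.77 on the KLF2-/- arrays and 5.28 ± 0.31 on the wild-type arrays (SD, n = 4 each, exact permutation p = 0.0571). Its values were 5.38, 5.77, 7.15 and 5.89 on KLF2-/- arrays 11 to 14 and 5.18, 5.28, 4.97 and 5.70 on wild-type arrays 3, 5, 7 and 9. No source says where its probes lie relative to the deletion, so its signal does not check the labels. In pooled cells, fewer cells of a type and less RNA per cell cannot be told apart.

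No mitoribosomal gene passed the test for a difference between KLF2-/- and wild-type precursors. By limma, adjusted over all 12393 genes (Benjamini-Hochberg), an adjusted p under 0.05 was reached by 0 of the 74 genes and by 0% of all genes, and 3 of the 74 had an unadjusted p under 0.05. The lowest adjusted p of a mitoribosomal gene was 0.905, which was also the lowest of all 12393 genes and was shared by many of them. The median log2 difference, KLF2-/- minus wild type, was 0.03 over the 74 genes and 0.02 over all genes. The mean was higher in KLF2-/- for 41 genes and lower for 33, and 53.4% of all genes had a higher mean. Single differences ran from -0.52 for Mrps24 to 0.87 for Mrpl45. The large-subunit genes had a median of 0.03 (25 higher, 22 lower) and the small-subunit genes one of 0.04 (16 higher, 11 lower).

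The precision of these differences was enough to bound most of them. The 95% interval of a gene's log2 difference extended by 0.27 (Mrps31) to 1.16 (Mrps5) to either side, with a median of 0.52. For 56 of the 74 genes the whole interval lay inside a 2-fold difference in either direction. For the other 18 it reached past that. The interval left out 0 for 3 genes, Mrpl45, Mrps15 and Mrpl52, before any adjustment. An unadjusted p under 0.05 was met by 4.8% of all genes. Of these 3 genes, 2 were higher in KLF2-/- (3.33% of all genes) and 1 was lower (1.47% of all genes). The groups did not overlap at 2 genes, Mrpl52 and Mrps24, against 2.61% of all genes. Both were lower in KLF2-/- (1.07% of all genes), and 0 were higher without overlap (1.55% of all genes). Both shares among the 74 genes are near those of all genes.

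**Figure D1:**
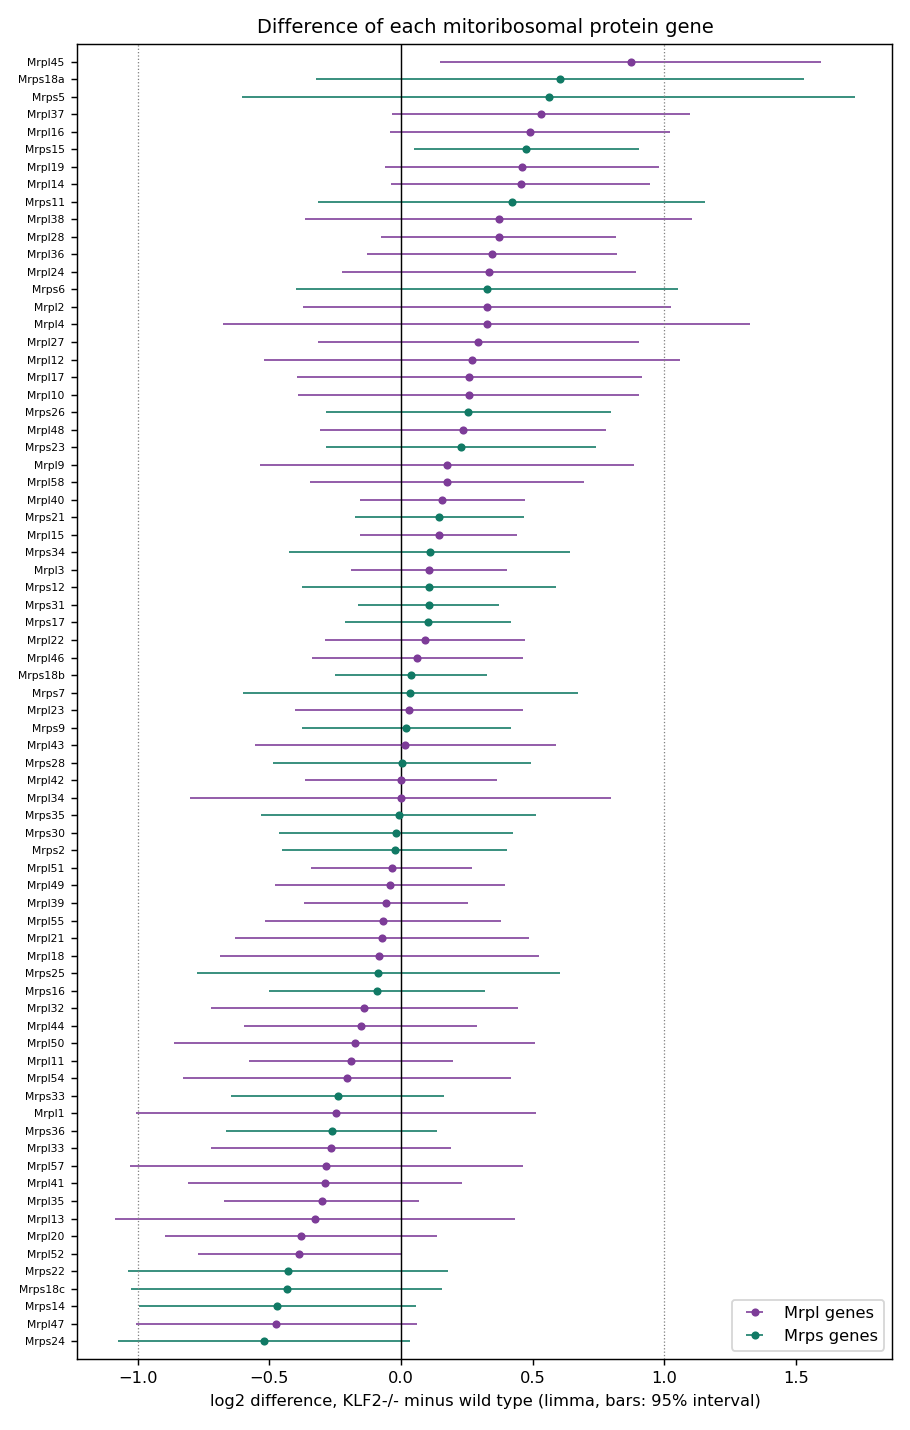
Log2 difference of each of the 74 genes, KLF2-/- minus wild type, with the gene on the vertical axis and the 95% interval from limma as a bar. Purple marks genes named Mrpl and green genes named Mrps, dotted lines mark a 2-fold difference, and the points run from -0.52 to 0.87 on both sides of 0.

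Mrpl45 had the largest difference. Its protein lies at the exit of the tunnel through which the new chain leaves and holds the mammalian mitoribosome to the inner membrane. Its log2 signal was 6.64, 6.36, 6.67 and 6.79 on KLF2-/- arrays 11 to 14, against 5.25, 5.09, 5.95 and 6.68 on wild-type arrays 3, 5, 7 and 9. The KLF2-/- arrays were close together, and wild-type array 9 lay among them while arrays 3 and 5 were low. The means were 6.61 ± 0.18 in KLF2-/- and 5.74 ± 0.73 in wild type (SD, n = 4 each), a log2 difference of 0.87 (SE 0.32, unadjusted p = 0.0233, adjusted p = 0.905, limma; exact permutation p = 0.114). Without wild-type arrays 3 and 5 the difference was 0.30 (unadjusted p = 0.26, limma). These are the 2 lowest arrays for this gene, so leaving them out had to lessen the difference.

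Mrps15 codes for a small-subunit protein with a bacterial counterpart that binds the ribosomal RNA directly. Its signal was 8.57, 8.60, 8.40 and 8.65 on KLF2-/- arrays 11 to 14, against 7.91, 7.72, 8.11 and 8.57 on wild-type arrays 3, 5, 7 and 9. As for Mrpl45, wild-type array 9 lay within the KLF2-/- range and arrays 3 and 5 were lowest. The log2 difference was 0.48 (SE 0.19, unadjusted p = 0.0326, adjusted p = 0.905, limma; exact permutation p = 0.0857). Its second probe set differed by 0.61 (SE 0.21, all probe sets, limma). Without wild-type arrays 3 and 5 the difference of the first was 0.21 (unadjusted p = 0.31, limma), a fall that again follows from leaving out the lowest arrays.

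Mrpl52 and Mrps24 were the genes with groups that did not overlap, both with lower signal in KLF2-/-. Mrpl52 codes for a large-subunit protein without a bacterial counterpart. Its signal was 9.87, 10.13, 9.46 and 10.12 on KLF2-/- arrays 11 to 14, against 10.28, 10.19, 10.29 and 10.38 on wild-type arrays 3, 5, 7 and 9. The log2 difference was -0.39 (SE 0.17, unadjusted p = 0.049, adjusted p = 0.905, limma), and -0.24 without KLF2-/- array 13, which was the lowest. Mrps24, which codes for the counterpart of bacterial protein S3 at the site where messenger RNA enters, had 9.47, 9.20, 8.35 and 9.41 on KLF2-/- arrays 11 to 14, against 9.50, 9.61, 9.88 and 9.53 on wild-type arrays 3, 5, 7 and 9. The nearest arrays of the groups were KLF2-/- array 11 and wild-type array 3, and array 13 stood below the rest. The log2 difference was -0.52 (SE 0.25, unadjusted p = 0.0634, adjusted p = 0.905, limma), and -0.27 without KLF2-/- array 13. For both genes array 13 was the lowest array, so leaving it out had to lessen the difference. The exact permutation p was 0.0286 for both genes, the smallest that 4 against 4 arrays can give. With quantile normalisation the groups of both genes overlapped, but the log2 differences were no smaller. They were -0.40 for Mrpl52 (unadjusted p = 0.0341, limma) and -0.54 for Mrps24 (unadjusted p = 0.0393, limma). The groups also overlapped for every other probe set of these genes. The other probe sets of Mrpl52 differed by -0.30, -0.24 and -0.03, at mean signals of 8.83, 7.77 and 3.25. The last is near the lowest value of any probe set, 2.47. That of Mrps24 differed by -0.25 (SE 0.34). As a mean over probe sets, which weighs dim ones alike, Mrpl52 differed by -0.24 (unadjusted p = 0.163, limma) and Mrps24 by -0.39 (unadjusted p = 0.189, limma).

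The promoters of these 4 genes are shown because they are the genes that stood out by either measure. Each window runs from 250 bases before to 50 bases after the gene's start, from RefSeq on build GRCm38.p6, 5′ to 3′ on the gene's strand. Capitals mark matches to motifs of 3 factors known to act on nuclear genes of mitochondria, NRF1 (GCGCA, any base, then GCGC), ETS factors such as GABPA (CCGGAAG) and YY1 (AAGATGGCG), on either strand.
Mrpl45 promoter, chr11:97315466-97315765, plus strand: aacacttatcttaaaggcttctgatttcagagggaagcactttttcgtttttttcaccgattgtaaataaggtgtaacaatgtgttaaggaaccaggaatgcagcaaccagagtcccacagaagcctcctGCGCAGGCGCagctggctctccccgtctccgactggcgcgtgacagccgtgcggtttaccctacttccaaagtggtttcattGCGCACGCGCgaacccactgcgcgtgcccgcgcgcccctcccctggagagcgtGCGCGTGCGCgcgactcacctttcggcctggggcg
Mrps15 promoter, chr4:126046678-126046977, plus strand: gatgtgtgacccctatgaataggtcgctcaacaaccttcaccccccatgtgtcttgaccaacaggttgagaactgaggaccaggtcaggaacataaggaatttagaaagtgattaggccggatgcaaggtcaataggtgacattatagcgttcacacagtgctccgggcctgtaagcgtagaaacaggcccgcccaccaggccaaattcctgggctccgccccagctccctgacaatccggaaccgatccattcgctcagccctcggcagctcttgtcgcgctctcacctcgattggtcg
Mrpl52 promoter, chr14:54426659-54426958, plus strand: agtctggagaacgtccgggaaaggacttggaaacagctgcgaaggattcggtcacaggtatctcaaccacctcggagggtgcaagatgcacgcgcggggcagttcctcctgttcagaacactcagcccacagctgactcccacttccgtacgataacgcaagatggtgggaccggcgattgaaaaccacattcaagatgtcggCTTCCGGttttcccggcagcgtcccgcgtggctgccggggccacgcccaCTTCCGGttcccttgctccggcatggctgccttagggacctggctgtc
Mrps24 promoter, chr11:5707652-5707951, minus strand: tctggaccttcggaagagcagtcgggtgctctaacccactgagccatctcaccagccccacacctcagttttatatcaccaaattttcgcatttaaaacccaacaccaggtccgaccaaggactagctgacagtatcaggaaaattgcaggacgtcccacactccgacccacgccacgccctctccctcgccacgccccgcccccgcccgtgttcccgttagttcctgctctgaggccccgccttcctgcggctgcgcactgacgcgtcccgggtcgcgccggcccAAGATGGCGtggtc
The Mrpl45 window held 3 matches to the NRF1 motif, at -120, -38 and 15 from the start. The Mrpl52 window held 2 ETS matches, at -47 and 2, and the Mrps24 window 1 YY1 match at 36. The Mrps15 window held none of these letters. The letters CCACNCCC (N is any base), bound by KLF factors, were not marked. They occur in lower case in the Mrpl52 and Mrps24 windows, and not in those of Mrpl45 and Mrps15. Of all array windows 22.1% hold them. A match is a run of letters and not a measured site of binding, and no match says only that the letters are not in the window.

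**Figure D2:**
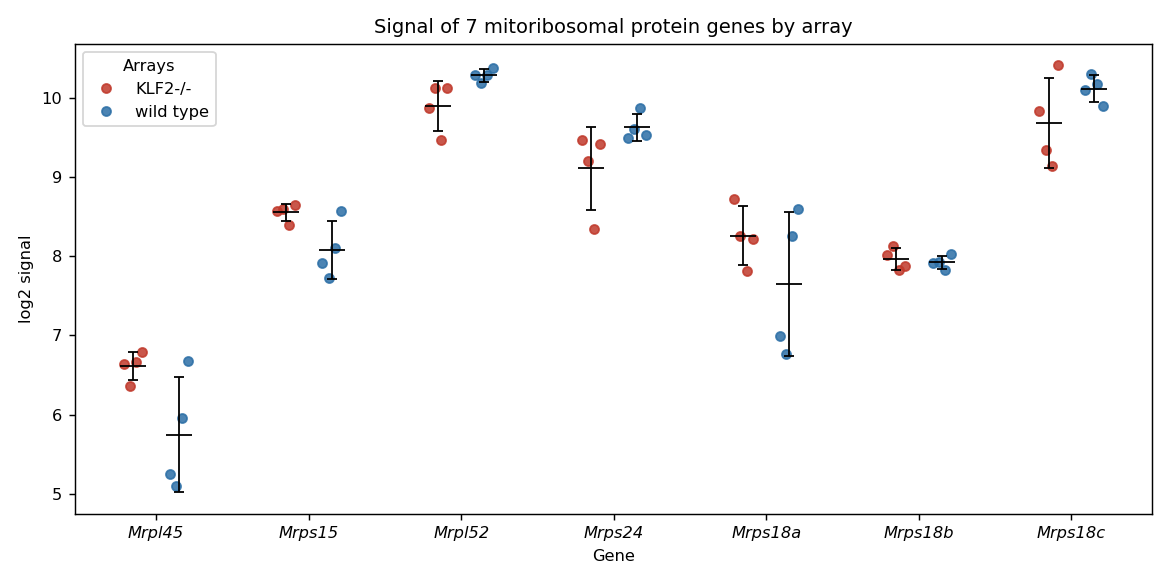
Log2 signal (vertical axis) of 7 genes on each array, KLF2-/- arrays in red to the left and wild-type arrays in blue to the right of each gene, with black lines for mean and SD (n = 4 each). Of these 7 genes the groups lie apart for Mrpl52 and Mrps24, and the blue points of Mrpl45 and Mrps18a spread farther than the red ones.

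No large-subunit gene with a bacterial counterpart passed the test. Of the 29 such genes, 17 had a higher and 12 a lower mean in KLF2-/-, with a median log2 difference of 0.11, and 0 had an unadjusted p under 0.05. At one end was Mrpl16, whose bacterial counterpart lies near the site where the peptide bond is made, with 9.04, 8.91, 8.35 and 8.84 on KLF2-/- arrays 11 to 14, against 7.94, 8.10, 8.24 and 8.89 on wild-type arrays 3, 5, 7 and 9. All KLF2-/- arrays but 13 were at or above 8.84, and wild-type array 9 lay among them, for a log2 difference of 0.49 (SE 0.24). At the other end was Mrpl47, the counterpart of bacterial L29 near the tunnel exit, at -0.47 (SE 0.24). Mrpl47 had 8.41, 9.01, 8.47 and 8.33 on KLF2-/- arrays 11 to 14, against 9.40, 9.23, 8.44 and 9.05 on wild-type arrays 3, 5, 7 and 9. The groups overlapped, since wild-type array 7 lay within the KLF2-/- range. Mrpl1, a counterpart of bacterial L1, had the widest range of this group, with 7.44, 6.82, 6.30 and 8.01 on KLF2-/- arrays 11 to 14, against 7.72, 7.50, 7.17 and 7.16 on wild-type arrays 3, 5, 7 and 9. KLF2-/- arrays 13 and 14 held its lowest and its highest value. Mrpl11, of the stalk base, and Mrpl10, which anchors the stalk, differed by -0.19 (SE 0.17) and 0.26 (SE 0.29). Mrpl12, whose protein forms the stalk that factors of translation bind, averaged 9.01 ± 0.57 in KLF2-/- and 8.74 ± 0.60 in wild type (SD, n = 4 each). It was high on 1 array of each group, at 9.76 on KLF2-/- array 12 and 9.63 on wild-type array 9. Mrpl55, a counterpart of bacterial L31 and among the dimmest genes, had 6.55, 6.45, 5.90 and 6.50 on KLF2-/- arrays 11 to 14, against 6.30, 6.09, 6.67 and 6.61 on wild-type arrays 3, 5, 7 and 9.

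The 18 large-subunit genes without a bacterial counterpart had a median log2 difference of -0.02 (8 higher, 10 lower). Beside Mrpl45 and Mrpl52 they include Mrpl37, which had 5.75, 5.85, 4.83 and 5.30 on KLF2-/- arrays 11 to 14 and 4.49, 5.01, 4.90 and 5.21 on wild-type arrays 3, 5, 7 and 9. This was the dimmest gene and the single one whose mean lay below the median signal of all genes, 5.61. Mrpl51, the brightest, stayed within 11.34 and 11.69 on the KLF2-/- arrays and within 11.55 and 11.77 on the wild-type arrays. Its log2 difference was -0.04 with a 95% interval from -0.34 to 0.27. Mrpl39 had 10.79, 10.82, 10.48 and 10.82 on KLF2-/- arrays 11 to 14, against 10.70, 10.79, 10.96 and 10.69 on wild-type arrays 3, 5, 7 and 9, and Mrpl41 had 10.46, 10.13, 9.59 and 10.74 on KLF2-/- arrays 11 to 14, against 10.63, 10.43, 10.57 and 10.44 on wild-type arrays 3, 5, 7 and 9. Both were lowest on KLF2-/- array 13, and on the other arrays Mrpl39 spanned little. Probes differ in how well they bind, so brightness does not rank the amounts of these transcripts. Mrpl58, which also codes for a peptidyl-tRNA hydrolase built into the large subunit, differed by 0.17 (SE 0.23).

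Small-subunit genes with a bacterial counterpart had a median log2 difference of 0.04 over 17 genes (12 higher, 5 lower), and those without one a median of -0.01 over 10 genes (4 higher, 6 lower). Mrps5 varied most of all 74 genes, over a range of 2.56. It had 7.42, 6.83, 5.74 and 6.33 on KLF2-/- arrays 11 to 14, against 5.62, 4.86, 7.28 and 6.31 on wild-type arrays 3, 5, 7 and 9. Arrays of both groups lay at both ends, and the difference of 0.56 (SE 0.52) turned to -0.22 without wild-type arrays 3 and 5. Its second probe set differed by -0.26. Mrps25 had 8.93, 8.11, 7.26 and 8.18 on KLF2-/- arrays 11 to 14, against 8.35, 8.36, 8.01 and 8.09 on wild-type arrays 3, 5, 7 and 9, so that KLF2-/- arrays 11 and 13 held its highest and lowest value. Mrps14, a counterpart of bacterial S14, had 10.89, 10.42, 9.72 and 10.41 on KLF2-/- arrays 11 to 14, against 10.62, 10.78, 10.94 and 10.98 on wild-type arrays 3, 5, 7 and 9, a difference of -0.47 (SE 0.23). Mrps22, without a bacterial counterpart, had 8.88, 8.36, 7.58 and 8.65 on KLF2-/- arrays 11 to 14, against 8.78, 8.87, 9.04 and 8.50 on wild-type arrays 3, 5, 7 and 9, a difference of -0.43 (SE 0.27). Both were lowest on KLF2-/- array 13, and KLF2-/- array 11 lay among the wild-type arrays. Mrps11, a dim gene, had 6.56, 6.48, 5.51 and 6.01 on KLF2-/- arrays 11 to 14, against 5.46, 5.09, 5.87 and 6.46 on wild-type arrays 3, 5, 7 and 9, with wide spread in both groups and a difference of 0.42 (SE 0.33). Mrps12, the counterpart of the bacterial protein at the decoding centre, differed by 0.11 (SE 0.21). Mrps31 varied least, over a range of 0.27.

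The S18 family has 3 genes in mammals, whose proteins take different places in the mitoribosome. Mrps18a had 8.73, 8.26, 7.82 and 8.22 on KLF2-/- arrays 11 to 14, against 6.997, 6.76, 8.25 and 8.60 on wild-type arrays 3, 5, 7 and 9. Mrps18b had 8.01, 8.13, 7.82 and 7.88 on the KLF2-/- arrays, against 7.92, 7.93, 7.82 and 8.02 on the wild-type arrays in the same order. Mrps18c had 9.83, 9.34, 9.14 and 10.41 on the KLF2-/- arrays, against 10.10, 10.30, 10.17 and 9.90 on the wild-type arrays. The 3 paralogs did not vary together: wild-type arrays 3 and 5 were the lowest arrays for Mrps18a and among the higher ones for Mrps18c, and Mrps18b hardly varied. The log2 differences were 0.60 (SE 0.41), 0.04 (SE 0.13) and -0.43 (SE 0.26). That of Mrps18a was -0.17 without wild-type arrays 3 and 5.

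Not every gene of these names codes for a part of the subunit it is named for. The proteins of Mrps18a and Mrps30 lie in the large subunit, and that of Mrps36 is known as a part of the alpha-ketoglutarate dehydrogenase complex. The subunit groups in this report follow the names, so Mrps18a, Mrps30 and Mrps36 count among the 27 small-subunit genes. Mrps30 averaged 7.47 ± 0.40 in KLF2-/- and 7.49 ± 0.04 in wild type (SD, n = 4 each). For Mrps36 the values were 7.48, 7.33, 7.33 and 7.88 on KLF2-/- arrays 11 to 14, against 7.91, 7.51, 7.999 and 7.65 on wild-type arrays 3, 5, 7 and 9, and the log2 difference was -0.26 (SE 0.18). Neither passed the test.

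Where a gene had several probe sets, they did not always have differences of 1 sign. Of the 33 such genes, 11 had probe sets whose differences had opposite signs. For Mrps25 they ran from -0.36 to 0.48 and for Mrpl44 from -0.15 to 0.62, with mean signals down to 3.94 and 5.24 for the dimmest probe set. Mrps23 had 2 probe sets with log2 differences of 0.23 and 0.69. Among all 127 probe sets, 5 had an unadjusted p under 0.05 (5.4% of all probe sets did) and 4 had groups that did not overlap (2.99% of all probe sets). The 5 were those of Mrpl45 and Mrpl52, both of Mrps15, and a second one of Mrpl1 at -0.47. The 4 were those of Mrpl52 and Mrps24 and further ones of Mrpl19 (-0.26) and Mrpl49 (-0.33). That of Mrpl19 was its dimmest, at a mean signal of 3.35. The brighter probe sets of Mrpl19 differed the other way, by 0.46 and 0.72, with groups that overlapped.

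The arrays of a group differed more among themselves than the groups did. Set against each gene's own mean over 8 arrays, the 74 genes deviated on average by 0.22, 0.15, -0.36 and 0.10 on KLF2-/- arrays 11 to 14, and by -0.19, -0.19, 0.07 and 0.20 on wild-type arrays 3, 5, 7 and 9. The group means of these were 0.03 ± 0.26 in KLF2-/- and -0.03 ± 0.20 in wild type (SD, n = 4 each). On KLF2-/- array 13, 10 of 74 genes lay above their own mean, where 53.5% of all genes did. On wild-type arrays 3 and 5, 21 and 25 of 74 lay above it, beside 46.9% and 49.9% of all genes. On KLF2-/- array 11 and wild-type array 9 the count was 58 each, beside 47.3% and 48.7% of all genes. Nearly all of the 74 genes (73) lie at or above the median signal. Of all such brighter genes on the array, 66.7% were above their mean on KLF2-/- array 11 and 43.8% on array 13, and 40.6%, 46.2% and 60.2% on wild-type arrays 3, 5 and 9. On KLF2-/- arrays 12 and 14, 67.9% and 43.7% of the brighter genes were above their mean, beside 50 of the 74 genes on each. On wild-type array 7 it was 47.8%, beside 42 of the 74. Both groups thus held arrays with high and with low signal of these genes. Without KLF2-/- array 13 the median log2 difference of the 74 genes was 0.14 (56 higher, 18 lower), and without wild-type arrays 3 and 5 it was -0.09 (25 higher, 49 lower). These arrays had the lowest mean deviations of their groups, so the direction of both moves follows largely from leaving them out.

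The genes that were low on array 13 were in part others than those low on wild-type arrays 3 and 5. KLF2-/- array 13 held the lowest value of 32 genes, wild-type array 5 of 19 and wild-type array 3 of 14. Wild-type arrays 3 and 5 were the lowest 2 arrays for 17 genes (23% of the 74, against 10.1% of all genes), among them Mrpl45, Mrps15, Mrps18a, Mrps5, Mrpl16 and Mrpl2. For another 10 genes array 13 was lowest while both of these wild-type arrays were among the 4 highest (13.5%, against 5.34% of all genes). This set held Mrpl1, Mrpl13, Mrpl32, Mrpl44, Mrpl52, Mrps9, Mrps18c, Mrps22, Mrps24 and Mrps25. These sets were read from the values and were not tested.

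**Figure D3:**
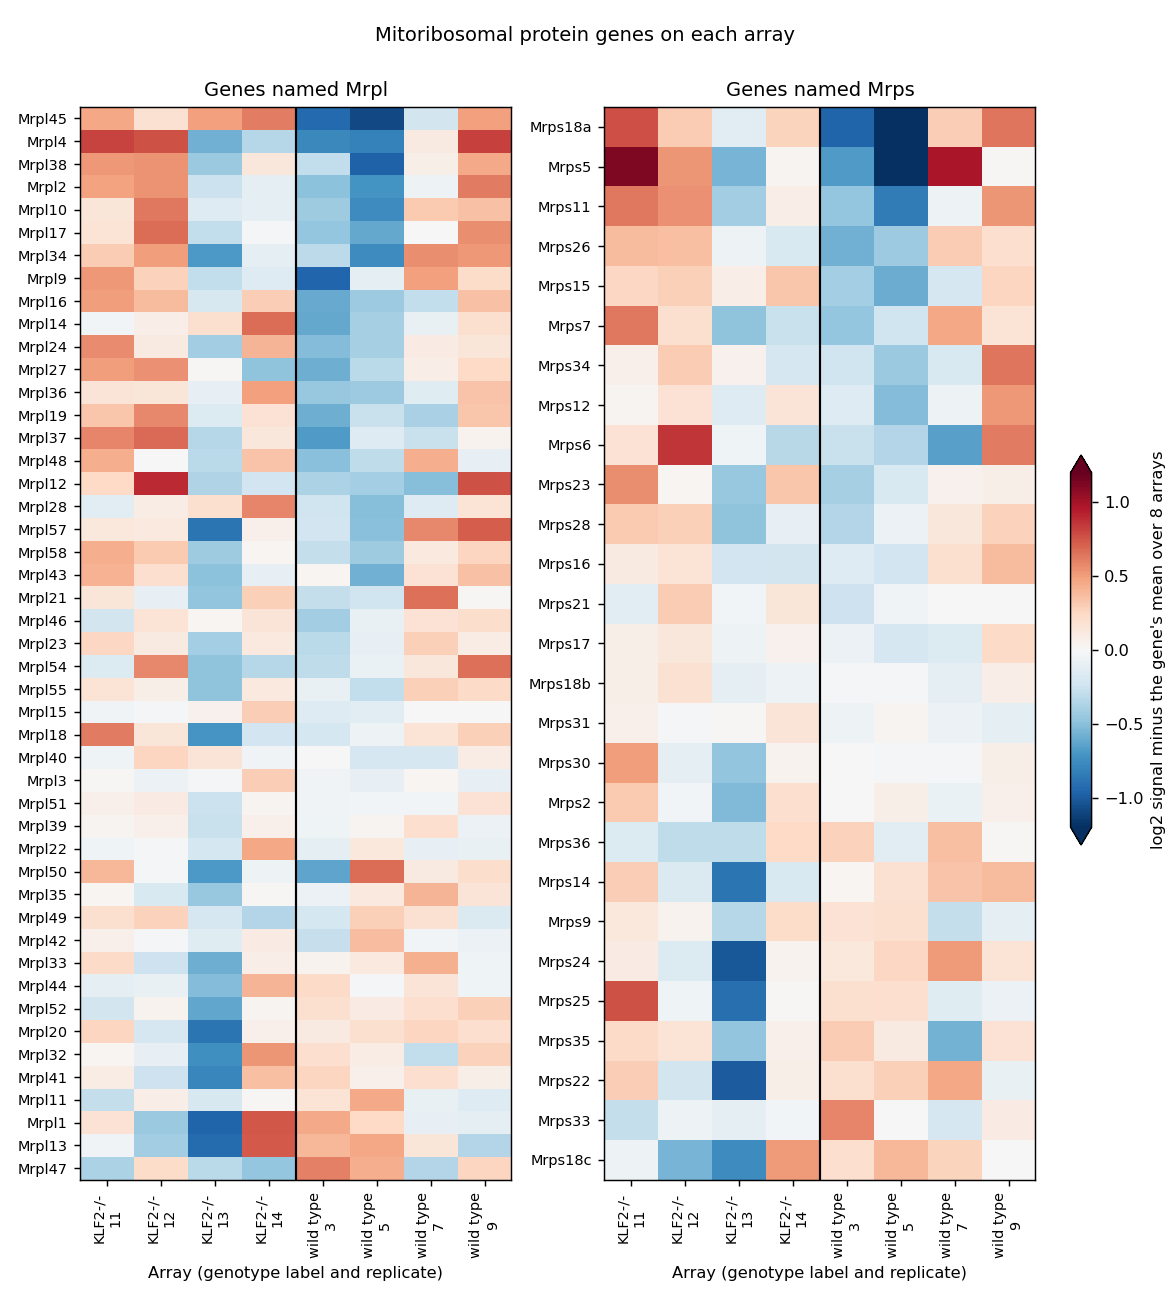
Log2 signal of each gene minus its own mean over 8 arrays (colour, cut at 1.2 on both sides), genes in rows (Mrpl left, Mrps right) ordered by their mean on wild-type arrays 3 and 5, and arrays in columns with KLF2-/- to the left of the black line. Genes at the top are low on wild-type arrays 3 and 5, and many in the lower part are low on KLF2-/- array 13.

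Of the marker lists, only the erythroid one was low on KLF2-/- array 13, as the mitoribosomal genes were. On wild-type arrays 3 and 5 other lists were low as well. Of 12 erythroid markers, 10 were measured, and their mean deviation was 0.39, -0.04, -0.82 and 0.58 on KLF2-/- arrays 11 to 14 and -0.52, -0.44, 0.39 and 0.46 on wild-type arrays 3, 5, 7 and 9. Both lists were lowest on array 13 and low on wild-type arrays 3 and 5. Not every erythroid marker was low there: 2 lay above their own means on wild-type array 3 and 3 on array 5. Gata1, the main erythroid transcription factor gene, was at 7.76 on array 13 and at 8.77 to 9.77 on the other KLF2-/- arrays. All 10 visceral endoderm markers were above their means on array 13, on average by 0.84, and they averaged -2.01 on KLF2-/- array 14. On array 13 the endothelial, macrophage and mesenchyme lists averaged 0.15, 0.33 and 0.46, and mesenchyme averaged -1.02 on array 14. On wild-type arrays 3 and 5 the endothelial list averaged -0.33 and -0.46, and mesenchyme -0.46 and -0.15. Macrophage markers averaged -0.06 and -0.13 there, and visceral endoderm markers -0.20 and 0.23. Of the other lists, 8 of 8 macrophage and 8 of 10 endothelial markers had a higher mean in KLF2-/-, with median log2 differences of 0.34 and 0.36. On array 13 most lists of other mitochondrial genes, described below, were low as well. Mitoribosomal proteins with other names averaged -0.48 there, translation factors -0.35, assembly factors -0.28 and import genes -0.26. The tRNA synthetases and the regulators averaged -0.23 each, DNA and RNA upkeep -0.17 and the respiratory chain and ATP synthase -0.09. Mitochondrial clearance genes averaged 0.34, and cytosolic ribosomal protein genes -0.12. The part of any of these lists in the mitoribosomal values was not tested. Summed over each marker list as linear signal divided by 1000, erythroid markers ran from 38.1 to 45.9 on KLF2-/- arrays and from 39.4 to 44.2 on wild-type arrays. The globin genes Hbb-bh1, Hbb-y and Hba-x, the brightest of the list, made up most of this sum. It therefore does not show the spread of the other erythroid markers. Visceral endoderm markers ran from 5.16 to 32.3 on KLF2-/- arrays and from 19.4 to 25.5 on wild-type arrays. Endothelial markers (10 of 10 measured) summed to 0.656 to 1.33 on KLF2-/- arrays and 0.546 to 0.892 on wild-type arrays. Macrophage markers (8 of 8) summed to 0.605 to 1.21 on KLF2-/- arrays and 0.533 to 0.655 on wild-type arrays. Mesenchyme markers (8 of 8) summed to 4.16 to 16.4 on KLF2-/- arrays and 6.14 to 12.5 on wild-type arrays. No marker is at 0 on this scale.

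**Figure D4:**
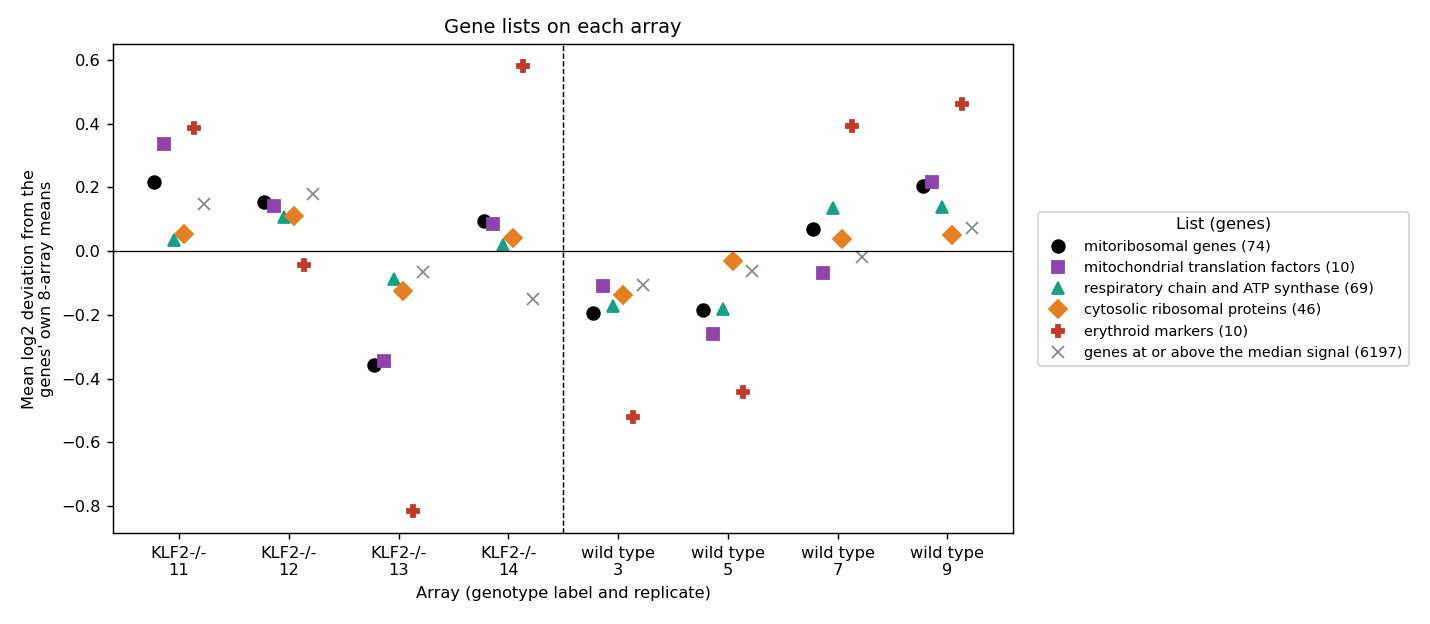
Mean log2 deviation of 6 gene lists from the genes' own 8-array means (vertical axis) on each array, KLF2-/- arrays to the left of the dashed line and wild-type arrays to the right. The mitoribosomal genes (black) are lowest on KLF2-/- array 13 at -0.36, where the erythroid markers are at -0.82.

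The rest of the machinery of mitochondrial translation gave no call either. By limma, 0 of 168 genes in 9 further mitochondrial lists passed an adjusted p of 0.05 (0% of all genes), and 11 had an unadjusted p under 0.05 (4.8% of all genes). Of 4 mitoribosomal proteins with other names, Ptcd3 had 8.57, 8.35, 7.25 and 8.31 on KLF2-/- arrays 11 to 14, against 8.63, 8.87, 8.69 and 8.72 on wild-type arrays 3, 5, 7 and 9. Its groups did not overlap, with array 13 far below the others, and the log2 difference was -0.61 (SE 0.27, adjusted p = 0.905, limma). Chchd1 (-0.12), Dap3 (0.16) and Gadd45gip1 (0.04) were nearer to 0. Translation factors had a median of 0.04 over 10 genes (7 higher, 3 lower), with Qrsl1 of the enzyme that makes glutaminyl-tRNA at 0.59, the elongation factor Tufm at 0.53, Mtif2 at 0.29 and Gatb at -0.23. The tRNA synthetases had a median of 0.08 over 10 genes (5 higher, 5 lower). Kars, which serves both cytosol and mitochondria, differed by 1.01 (SE 0.43, adjusted p = 0.905, limma), and Hars2, Fars2 and Gars by -0.45, 0.32 and 0.16.

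Factors that build the mitoribosome had a median log2 difference of 0.02 over 20 genes (10 higher, 10 lower). Ngrn, which helps to stabilise the large ribosomal RNA, differed by 0.63 (SE 0.25), and Fastkd2, Afg3l2 and Nsun4 by -0.56, 0.50 and 0.31. Genes that keep and read mitochondrial DNA and its RNA had a median of 0.23 over 14 genes (10 higher, 4 lower), with the tRNA-processing enzyme gene Elac2 at 0.47, Pnpt1 at -0.54, Hsd17b10 at 0.48 and Slirp at -0.28. Import genes had a median of 0.06 over 21 genes (11 higher, 10 lower), with Tomm40 of the outer membrane pore at 0.66, Timm17a at 0.36, Tomm7 at -0.30 and Tomm22 at -0.34. Regulators had a median of -0.06 over 11 genes (5 higher, 6 lower), with Esrra at 0.31, Hcfc1 at -0.30, Gabpa at 0.23 and Ppargc1b at 0.19.

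The 69 listed genes of the respiratory chain and ATP synthase are coded in the nucleus and not translated by the mitoribosome. Their median log2 difference was 0.01 (37 higher, 32 lower). The groups did not overlap at 5 of them (2.61% of all genes), 2 higher (1.55% of all genes) and 3 lower in KLF2-/- (1.07% of all genes). Atp5b, the catalytic subunit of ATP synthase, had 10.59, 10.56, 10.04 and 10.06 on KLF2-/- arrays 11 to 14, against 8.24, 8.79, 9.98 and 9.71 on wild-type arrays 3, 5, 7 and 9. Ndufa6 of complex I had 9.23, 8.98, 8.43 and 8.52 on the KLF2-/- arrays, against 9.36, 9.43, 9.60 and 9.57 on the wild-type arrays. These genes of one list lay apart in opposite directions, by 1.13 (SE 0.36) and -0.70 (SE 0.20). Ndufa4 was apart too, at -0.39, and Ndufa10 overlapped, at 0.73. Mitochondrial clearance genes had a median of 0.00 over 9 genes (4 higher, 5 lower), with Phb2 at 0.64, Gabarapl1 at 0.61, Pink1 at -0.28 and Ulk1 at 0.21. Cytosolic ribosomal protein genes had a median of 0.00 over 46 genes (23 higher, 23 lower), with Rpl12 at 0.61, Rps4x at 0.26, Rpl39 at -0.23 and Rps15 at -0.45.

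Promoter letters set the mitoribosomal genes beside the other genes of the array. RefSeq windows were matched for 65 of the 74 genes, 71 windows in all, and for 9882 genes of the array, 12559 windows. The ETS letters were in 33.8% of mitoribosomal windows and 14% of all array windows. The NRF1 letters were in 16.9% and 7.96%, and the YY1 letters in 9.86% and 2.31%. At least 1 of these 3 motifs was in 53.5% of the mitoribosomal windows and 21.9% of all. No match to one of the 3 overlapped a match to another in the mitoribosomal windows. The shares are descriptions with no test.

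Motifs of factors of the red cell and of common promoter elements were counted in the same windows. The letters CCACNCCC, bound by KLF factors, were in 19.7% of mitoribosomal windows and 22.1% of all array windows. The GATA letters AGATAA were in 15.5% and 7.83%, CCAAT in 39.4% and 37.1% and TATAAA in 7.04% and 9.8%. The median GC content was 58.7% and 59%, and the median number of CpG pairs 21 and 17. Genes with and without one of the NRF1, ETS or YY1 motifs had the same median log2 difference between genotypes, 0.03 (38 and 27 genes).

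**Figure D5:**
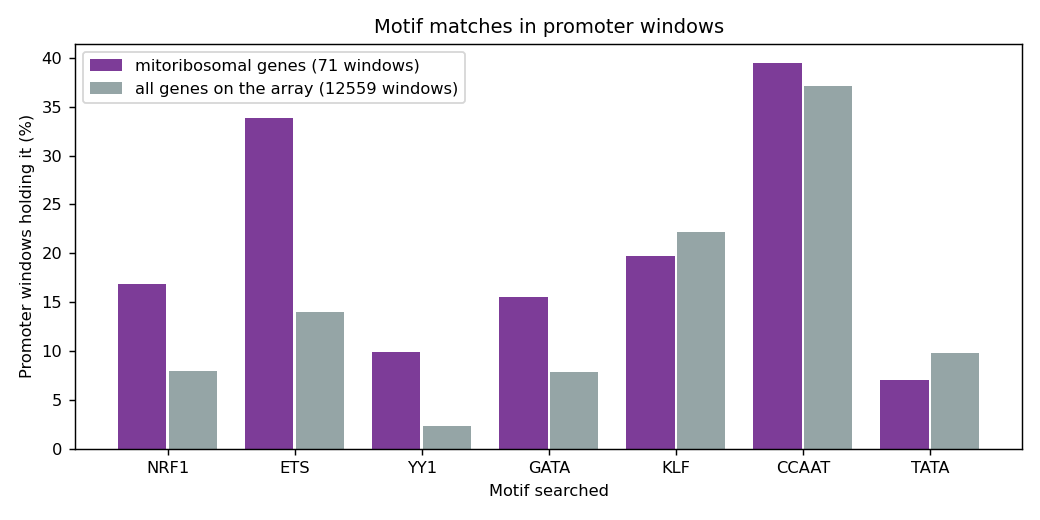
Share of promoter windows (vertical axis, percent) that hold each of 7 motifs on either strand, for 71 windows of mitoribosomal genes in purple and 12559 windows of all genes on the array in grey. The ETS share is 33.8% against 14%, and the KLF share 19.7% against 22.1%.

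Many of these genes start beside another gene. For 22 of 65 genes (33.8%) the window overlapped that of a gene on the opposite strand, against 15.8% of the array's genes with a window. Mrpl46 and Mrps11 share such a start with each other. Other partners were Psma2 of the proteasome for Mrpl32, Tcp1 of the cytosolic chaperonin for Mrpl18, Ndufb5 of complex I for Mrpl47 and the mitochondrial seryl-tRNA synthetase gene Sars2 for Mrps12. In 8 of the 16 pairings with a measured partner the log2 differences had the same sign, counting the pair of Mrpl46 and Mrps11 from both sides. Mrpl47 differed by -0.47 and Ndufb5 by 0.04, and Mrps18c by -0.43 and its partner Helq by 0.11.

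The authors' deposited table gives each probe set a signed score with a p and a q. Its direction is not in the header. Over all 22626 probe sets it correlated with the log2 difference of KLF2-/- minus wild type (Pearson's r = 0.796 across probe sets, which are not independent), so scores above 0 are taken to mean more signal in KLF2-/-. A q under 0.05 in the authors' deposited table was given to 0 of the 127 mitoribosomal probe sets and to 0.968% of all probe sets. Over the probe sets that stand for the 74 genes, the lowest q in the authors' deposited table was 0.161, for Mrps14 with a score of -2.95, and the next 0.22, for Mrpl16 with 2.75. The second probe set of Mrps23 had a lower q, 0.118, with a score of 3.12 in the authors' deposited table. Mrpl45 had a score of 1.92 at a q of 0.679 in the authors' deposited table, and Mrpl52 and Mrps24 scores of -2.17 each.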

How the data were processed

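Primitive erythroid RNA of 4 KLF2-/- and 4 wild-type samples was hybridised to Affymetrix mouse arrays. The authors deposited 1 log2 value per probe set and array, already normalised. The submitters' processing notes name GCOS, RMA and affy, with no version or order. The authors also deposited a score, p-value and q-value per probe set, whose making no source describes. Depth has no meaning for arrays, whose number limits the precision.

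Of 22626 probe sets, 20380 had 1 symbol in the platform annotation, 691 several and 1555 none. Of the first, 20351 matched the GRCm38.p6 gene table, and 0 names were altered. The comparison used R 4.3.3 with limma 3.58.1 (lmFit and eBayes, no covariate, no filter, all 12393 genes, Benjamini-Hochberg at 0.05). Single genes also had an exact permutation test, two-sided. The fit was also run on simulated data with independent noise for each gene. Those data hold no shift that the genes of an array share, so that run cannot show how the fit handles one. Replicates are pools of yolk sacs, labelled as biological. No batch is labelled and none was fitted. Columns of other samples numbered 0.

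The genes, lists and alternatives were chosen with earlier results of these data known, and the cytosolic ribosomal list and the motifs after the files were read. Any mitoribosomal gene could be named. Fuller values were given for those with an unadjusted p under 0.05, no overlap, or the largest differences, ranges or signals, for the S18 family and for Mrps30 and Mrps36. Up to 4 genes of smallest p were named per other list. Alternatives were quantile normalisation, median centring, array weights, leaving out dim genes, robust eBayes with a trend, all probe sets, their mean per gene, and leaving out arrays.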

Additional observations from a re-analysis of the deposited data

Results flagged for a closer look

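A value was looked for that stood apart from the other 3 of its group by Dixon's test at 95%, in 148 groups of 4 arrays. Chance gives about 1 in 20, or 7.4, and 7 were found. KLF2-/- array 13 was below the other KLF2-/- arrays for Mrpl39 (10.48, the others 10.79 to 10.82), Mrpl55 (5.90, the others 6.45 to 6.55) and Mrpl57 (9.01, the others 9.94 to 10.01). Wild-type array 9 was above the other wild-type arrays for Mrpl12 (9.63, the others 8.36 to 8.49), Mrpl51 (11.77, the others 11.55 to 11.57) and Mrps30 (7.55, the others 7.47). Wild-type array 5 was above the others for Mrpl22 (9.34, the others 9.09 to 9.12). Mean deviations of gene lists were tested in the same way in 6 further groups, and 1 stood apart, that of the 47 large-subunit genes on KLF2-/- array 13, at -0.35, where the other KLF2-/- arrays had 0.12 to 0.19. Over all 74 genes array 13 was at -0.36 and the other KLF2-/- arrays at 0.10 to 0.22. For the 27 small-subunit genes these values were -0.37 and 0.05 to 0.27. This describes 1 array and does not test the genotypes.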

How the results depend on the processing

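No paired analysis was possible because the groups share no replicate number. The count of mitoribosomal genes past an adjusted p of 0.05 by limma was 0 under every alternative run, as was that of the other mitochondrial lists. The median log2 difference of the 74 genes moved by less than the spread between arrays (SD 0.23), but its sign was not stable: it was -0.01 with quantile normalisation and -0.09 without wild-type arrays 3 and 5, and -0.02 to 0.14 with 1 array left out. The 3 genes with an unadjusted p under 0.05 (4.8% of all genes) became 6 with quantile normalisation (5.78%), 8 with array weights (11.9%), 5 over all probe sets (5.4%), and 1 each with dim genes left out (4.76%), with trend and robust fitting (4.71%) and without wild-type arrays 3 and 5 (1.45%). With 1 array left out they were 0 (without wild-type array 3, 2.36% of all genes, or 5, 2.47%) to 9 (without wild-type array 9, 8.33%), with 5 without KLF2-/- array 11 (4.31%) or 14 (7.98%), 6 without 13 (5.43%), 3 without 12 (4.02%) and 2 without wild-type array 7 (5.24%). The 2 genes with groups that did not overlap (2.61% of all genes) became 0 with quantile normalisation (3.37%), 1 each with median centring (3.38%) and with the mean over probe sets (2.46%), 4 over all probe sets (2.99%) and 10 without wild-type arrays 3 and 5 (8.34%). With 1 array left out they were 2 (without KLF2-/- array 12, 4.85%) to 11 (without wild-type array 9, 7.67%), with 3 without KLF2-/- array 13 (5.35%) or wild-type array 3 (3.45%) or 5 (3.96%), 4 without KLF2-/- array 11 (4.8%) or wild-type array 7 (5.07%) and 5 without KLF2-/- array 14 (7.61%). Percentages are shares of all genes, or of all probe sets, in the same fit. Fewer arrays overlap less by construction. Without wild-type arrays 3 and 5, the 2 lowest arrays for both genes, the differences of Mrps5 (-0.22) and Mrps18a (-0.17) reversed. The cause was not tested for any of these. Of the signal over background nothing can be said, since no detection values were used here.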

Other observations

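Probe sets whose annotation names a mitoribosomal gene together with another gene were not counted. That of Mrpl30 and Gm6238 averaged 9.96 in KLF2-/- and 10.13 in wild type, with its lowest value, 9.37, on KLF2-/- array 13. That of Mrps34 and Nme3 averaged 7.99 in KLF2-/- and 7.58 in wild type, and that of Mrpl53 and Ccdc142 8.69 in KLF2-/- and 8.57 in wild type. The groups overlapped for all 3.

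Brighter and dimmer mitoribosomal genes differed in the balance of their signs. Of the 37 brighter genes 16 had a higher and 21 a lower mean in KLF2-/- (median log2 difference -0.04), and of the 37 dimmer ones 25 had a higher and 12 a lower mean (median 0.10). Among all genes in the same signal ranges, the mean was higher in KLF2-/- for 48.3% (1696 genes) and 60.7% (5302 genes). The split was made after the values were seen and was not tested.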
